A study of Mus musculus with 5 samples.

Results

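The expression of 8 genes was followed across prostate tumors of castrated and intact mice, namely Apod, Matn2, Pkd2l1, Cyp2f2, Hp, Fgl1, Car3 and Azgp1. They were taken by symbol as 8 of the 24527 rows of the deposited count table, and all 8 were among the 14612 genes that passed the filter of more than 1 CPM (counts scaled to library size) in at least 2 samples. The 8 were chosen by their high counts in castrated against intact tumors of these same mice, so their values are a description without a test, and the question was which of the rises were shared by all castrated samples and which belonged to 1 or 2 of them. The prostate is kept by androgens from the testis, and castration removes most of that supply. Tumor tissue holds cancer cells along with stroma, fat, nerve and immune cells, in proportions that can differ from one animal to the next.

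All 5 mice were TripleTg (hHGFtg:H11hMET/+:Ctnnb1L(Ex3)/+:PBCre4). Each carried a human HGF transgene expressed ubiquitously, and in addition a human MET transgene and an allele giving stabilized β-catenin, which the probasin promoter-driven Cre4 switched on in prostate epithelium. The methods describe mixed C57BL/6 and C3H SCID backgrounds, the latter without mature lymphocytes where the scid mutation is homozygous. Mice castrated at 4 months gave 3 samples and intact mice of the same age and genotype gave 2, all analyzed at 8 months from tumor tissue checked under the microscope, with 1 sample per mouse. Library totals in castrated replicates 1 to 3 came to 28015507, 18951782 and 20492061 counts, and those of intact replicates 1 and 2 to 21560355 and 22853501. CPM below are scaled by TMM factors, and TPM also divide by the gene length of the deposited table and serve to compare genes with each other. The edgeR quasi-likelihood test with thresholds of 0.05 on the adjusted p and 1 on the absolute log2 fold change called 0 of the 14612 genes between castrated and intact samples, which is 0% of those tested, while 1596 genes passed at the unadjusted p, 1120 higher (7.66%) and 476 lower (3.26%) in castrated samples. DESeq2 called 703 higher (4.81%) and 286 lower (1.96%) at the same thresholds. The unadjusted count fell to 867 without castrated replicate 3 and 893 without castrated replicate 2, and reached 2570 without intact replicate 1, where edgeR called 1 gene, Coch.

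The 8 genes have different known roles. Apod encodes apolipoprotein D, a small lipid-carrying lipocalin found in nerve and connective tissue. Matn2 encodes matrilin-2, an adaptor of the extracellular matrix, and Pkd2l1 a polycystin cation channel known from sour-sensing cells and primary cilia. Cyp2f2 is a cytochrome P450 of airway club cells and liver that oxidizes naphthalene. Hp (haptoglobin) captures free hemoglobin in plasma, and Fgl1 is a fibrinogen-like protein secreted mainly by liver, also known as a ligand of the immune checkpoint receptor LAG3. Car3 is the cytosolic carbonic anhydrase of fat, muscle and liver, and Azgp1 encodes zinc-α2-glycoprotein, a secreted protein with an MHC class I-like fold linked to fat breakdown.

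In mm10, Apod lay on chromosome 16 (31296192 to 31314808, minus strand), Matn2 on chromosome 15 (34306681 to 34436240, plus strand), Pkd2l1 on chromosome 19 (44147637 to 44192442, minus strand) and Cyp2f2 on chromosome 7 (27119955 to 27133660, plus strand). Hp and Fgl1 lay on chromosome 8 (109575128 to 109579172 and 41191434 to 41215156, both minus strand), Car3 on chromosome 3 (14863538 to 14872373, plus strand) and Azgp1 on chromosome 5 (137981521 to 137990232, plus strand). All 8 are protein coding. The longest transcript in GENCODE had from 3 exons for Fgl1 to 19 for Matn2. These need not be the exons of the main coding transcript or those used in counting. Matn2 overlaps 9430069I07Rik and Cyp2f2 overlaps the antisense gene Gm15883, both on the opposite strand. Whether counting used the strand was not stated, so reads from the overlap of each pair cannot be told apart. 9430069I07Rik itself was counted 1, 1 and 1 times in castrated samples and 0 and 1 times in intact samples.

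Promoter sequence in the RefSeq table (GRCm38.p6, the same assembly as mm10) was found for 3 of the 8, Apod, Cyp2f2 and Azgp1, which stand for rises shared by 3, 2 and 1 castrated samples in the comparison that follows. They are shown because the treatment removes androgen, a hormone whose receptor binds DNA through TGTTCT half-sites. Each runs 5′ to 3′ over 300 bases, from 250 before to 50 after the start of transcription, and capitals mark TGTTCT or its complement AGAACA.
Apod (chr16:31314759-31315058, minus strand): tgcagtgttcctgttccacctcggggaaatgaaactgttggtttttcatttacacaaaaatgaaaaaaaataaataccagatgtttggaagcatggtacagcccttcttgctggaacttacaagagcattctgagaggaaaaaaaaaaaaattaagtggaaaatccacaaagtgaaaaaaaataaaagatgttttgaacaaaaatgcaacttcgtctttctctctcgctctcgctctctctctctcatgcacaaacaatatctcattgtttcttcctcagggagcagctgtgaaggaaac
Cyp2f2 (chr7:27119705-27120004, plus strand): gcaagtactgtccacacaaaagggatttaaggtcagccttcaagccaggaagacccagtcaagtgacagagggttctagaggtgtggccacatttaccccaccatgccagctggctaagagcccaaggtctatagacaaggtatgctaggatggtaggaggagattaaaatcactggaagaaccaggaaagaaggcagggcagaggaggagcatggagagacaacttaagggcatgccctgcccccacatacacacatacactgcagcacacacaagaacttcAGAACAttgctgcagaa
Azgp1 (chr5:137981271-137981570, plus strand): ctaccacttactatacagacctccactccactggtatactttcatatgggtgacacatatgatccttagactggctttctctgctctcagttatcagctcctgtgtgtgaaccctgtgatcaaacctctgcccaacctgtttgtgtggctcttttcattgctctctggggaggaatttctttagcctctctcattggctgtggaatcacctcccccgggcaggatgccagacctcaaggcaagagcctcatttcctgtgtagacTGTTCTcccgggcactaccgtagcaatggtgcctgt
The Cyp2f2 promoter held AGAACA at base 34 and the Azgp1 promoter TGTTCT at base 15 after the start, and the Apod promoter held neither, where 19.0% of 32851 RefSeq promoters of this length held at least 1 on either strand. The palindrome of AGAACA and TGTTCT with 3 bases between them was in 0.00913% of promoters and in 0 of these 3. TATAAA (13.6% of promoters) and TTCNNNGAA (8.3%), a letter pattern bound by STAT factors, were also in 0 of the 3, each searched on both strands, and CCAAT (37.4%) was in that of Azgp1 only. The Apod promoter was poorer in G and C (37.3%) than those of Cyp2f2 and Azgp1 (50.3% each) and the median promoter (52.7%). A match of letters is no evidence of binding, and these windows leave out more distant enhancers.

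Castrated replicate 3 and intact replicate 2 stood apart from the rest of their groups. Castrated replicate 3 held high levels of liver transcripts. The 14 hepatocyte markers examined summed to 31912 TPM there, against 93.2 and 43.7 TPM in castrated replicates 1 and 2 and 20.2 and 100.5 TPM in intact replicates 1 and 2. Alb (serum albumin), the most abundant of them, was at 15685 TPM in castrated replicate 3 and at 55.8, 2.23, 13.95 and 0.63 TPM in the other samples, in the same order. In castrated replicate 2, 6 of the 14 were at 0, among them Apoa1, Fga, Fgb and Fgg. Most of the sum in that sample (36.2 TPM) and in intact replicate 2 (92.4 TPM) was Cyp2e1 alone. Only 7 of the 14 passed the filter, all of them higher, and edgeR called 0 with 1 (Fgb) past the unadjusted p. Of these, Apoa1, Ahsg and Fgb were above 1 CPM in castrated samples alone, so the filter fixed their direction. Fewer cells of a type and less RNA per cell cannot be told apart in these bulk samples.

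Fat cell markers followed another pattern. The 15 adipocyte markers summed to 1912 and 1618 TPM in castrated replicates 2 and 3, and to 231, 215 and 217 TPM in castrated replicate 1 and intact replicates 1 and 2. Fabp4, the lipid carrier of fat cells and the most abundant of the 15, was at 1004 and 663 TPM in castrated replicates 2 and 3 and between 94.8 and 142 TPM in the others. The hormone gene Adipoq was at 132 and 129 TPM in these replicates, and at 1.0, 0 and 0.14 TPM elsewhere. In edgeR's fit 14 of the 15 had a positive fold change. None was called while 8 were past the unadjusted p, and DESeq2 called 8. However, Adipoq, Cfd, Cidec, Thrsp, Plin1, Plin4, Retn, Lep, Acvr1c and Adrb3 were above 1 CPM in castrated samples alone. The filter thus fixed the direction of these genes, and nothing is read from the tallies.

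**Figure D1:**
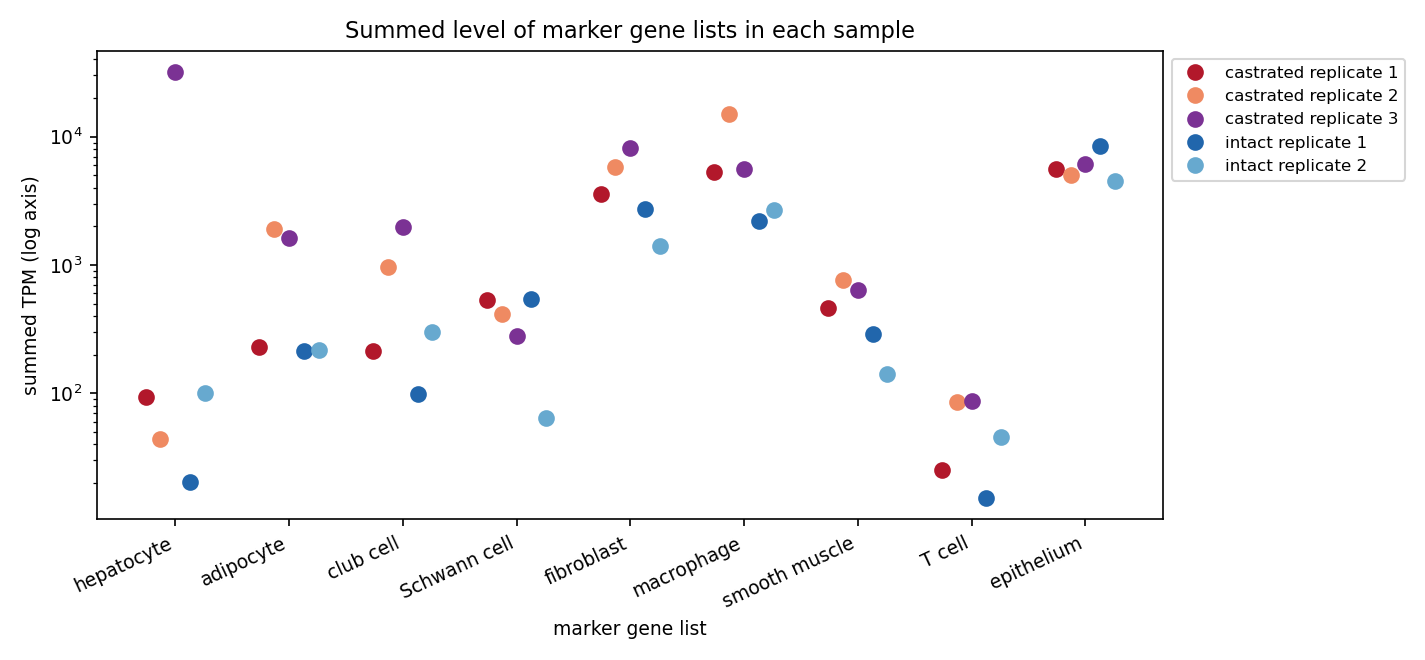
Summed TPM (log axis) of 9 marker gene lists in each of the 5 samples, with 1 point per sample and list. Hepatocyte markers were high in castrated replicate 3 alone (31912 TPM), and adipocyte markers in castrated replicates 2 and 3 (1912 and 1618 TPM).

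Intact replicate 2 stood apart through a gene of the secreting prostate. Tgm4, the prostate transglutaminase, was at 907 TPM there and at no more than 0.357 TPM in the other 4 samples, intact replicate 1 included. Epithelial genes were expressed throughout, as the keratin Krt18 ranged from 1037 to 1967 TPM and Epcam from 462 to 1595 TPM, whereas the secretory gene Msmb was at 0 in all 5. Intact replicate 1 thus carried its label together with a Tgm4 level like that of castrated samples, so each result below is given with and without single samples where they decide it.

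A castrated sample was counted as carrying a rise when its CPM exceeded 2 times that of the higher intact sample. By this measure, the rise was carried by all 3 castrated samples for 2 of the 8 genes (Apod and Pkd2l1), by castrated replicates 2 and 3 for 4 (Matn2, Cyp2f2, Hp and Car3), and by castrated replicate 3 alone for 2 (Fgl1 and Azgp1). Of all genes tested, 432 (2.96%) were over this line in 3 castrated samples, 915 (6.26%) in 2 and 925 (6.33%) in 1. The pattern of replicates 2 and 3 together was held by 753 genes (5.15%) and that of replicate 3 alone by 386 (2.64%). Because the 8 had been chosen for high castrated values, these shares serve as background and nothing is read from the difference. At 4 times the higher intact sample the same number of genes, 2, was carried by all 3, and at any level above it 3, with Matn2 added. The 2 shared rises became 6 without castrated replicate 1 (Matn2, Cyp2f2, Hp and Car3 added), 4 without intact replicate 1 (Cyp2f2 and Hp added) and 4 without intact replicate 2 (Matn2 and Car3 added).

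**Figure D2:**
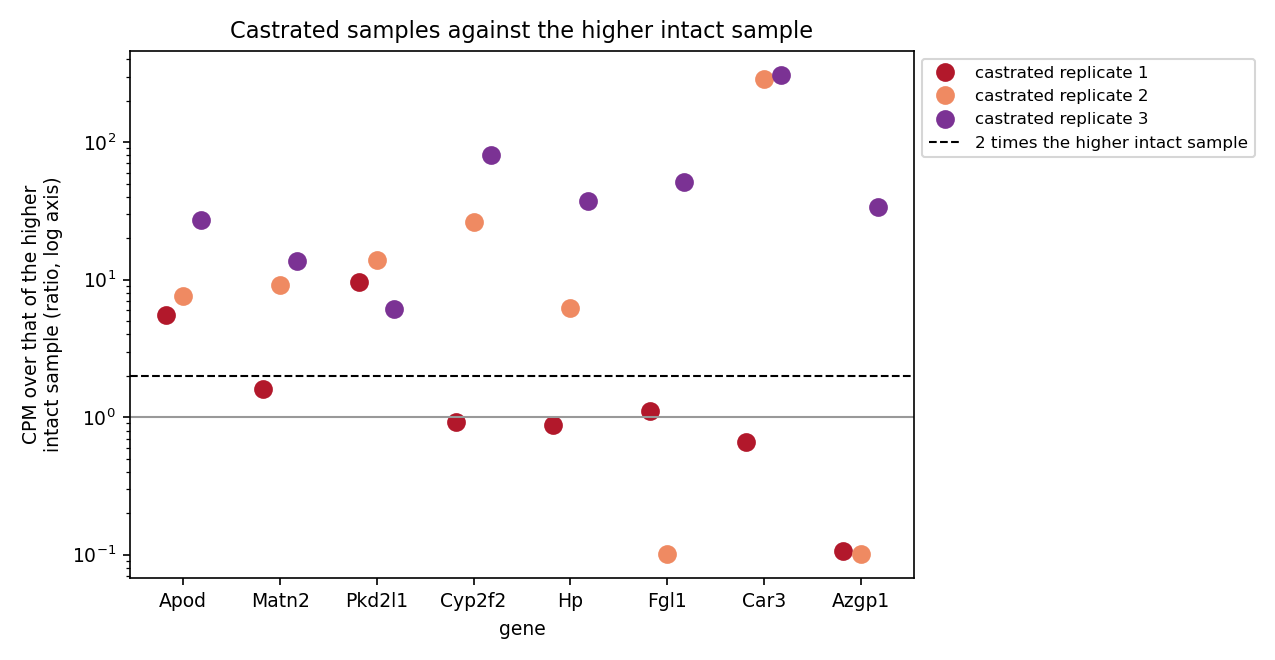
Ratio of the CPM in each castrated sample to that of the higher intact sample (log axis) for the 8 genes, with 1 point per castrated replicate and a dashed line at 2. All 3 points lie above the line for Apod and Pkd2l1, those of replicates 2 and 3 for Matn2, Cyp2f2, Hp and Car3, and that of replicate 3 alone for Fgl1 and Azgp1.

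Apod was the most abundant of the 8 per length in every sample except castrated replicate 2. Its raw counts were 13842, 12352 and 48399 in castrated replicates 1 to 3, against 1931 and 977 in intact replicates 1 and 2. This gave 482, 662 and 2330 CPM in castrated samples (1158 ± 1019, SD, n = 3) and 86.4 and 45.3 CPM in intact samples (65.9 ± 29.1, SD, n = 2). Every castrated sample was above both intact samples, by 5.58, 7.66 and 27.0 times the higher of them, and replicate 3 held 67.1% of the castrated total. The log2 fold change was 4.15 (SE 0.93), rank 158 of the 14612 genes, and 3.13 without castrated replicate 3.

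Pkd2l1 had the most even castrated levels of the 8. It was counted 2706, 2552 and 1245 times in castrated replicates 1 to 3 and 219 and 81 times in the intact samples. In CPM it stood at 94.3, 137 and 59.9 in castrated tumors (97.0 ± 38.5, SD, n = 3) and at 9.80 and 3.75 in intact tumors (6.78 ± 4.28, SD, n = 2). Its lowest castrated value was 6.11 times the higher intact value, and here castrated replicate 3, highest for the other 7 genes, was the lowest of the 3. The highest castrated sample was 2.28 times the lowest, a spread at percentile 78.3 among the genes tested. The log2 fold change of 3.84 (SE 0.61) ranged from 3.27 to 4.71 with any 1 sample left out.

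Matn2 lay between the shared and the partial rises. The counts were 1300, 4824 and 8033 in castrated replicates 1 to 3, against 173 and 606 in intact replicates 1 and 2. Castrated samples were at 45.3, 258 and 387 CPM (230 ± 172, SD, n = 3) and intact samples at 7.74 and 28.1 CPM (17.9 ± 14.4, SD, n = 2). The groups did not overlap, but castrated replicate 1 was only 1.61 times intact replicate 2, against 9.21 and 13.8 times for the others. Of all genes tested, 2481 (17%) had every castrated sample above both intact samples and 2364 (16.2%) every one below. The log2 fold change of Matn2 was 3.69 (SE 1.12), 3.09 without castrated replicate 3 and 4.86 without intact replicate 2, the higher of the intact samples.

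**Figure D3:**
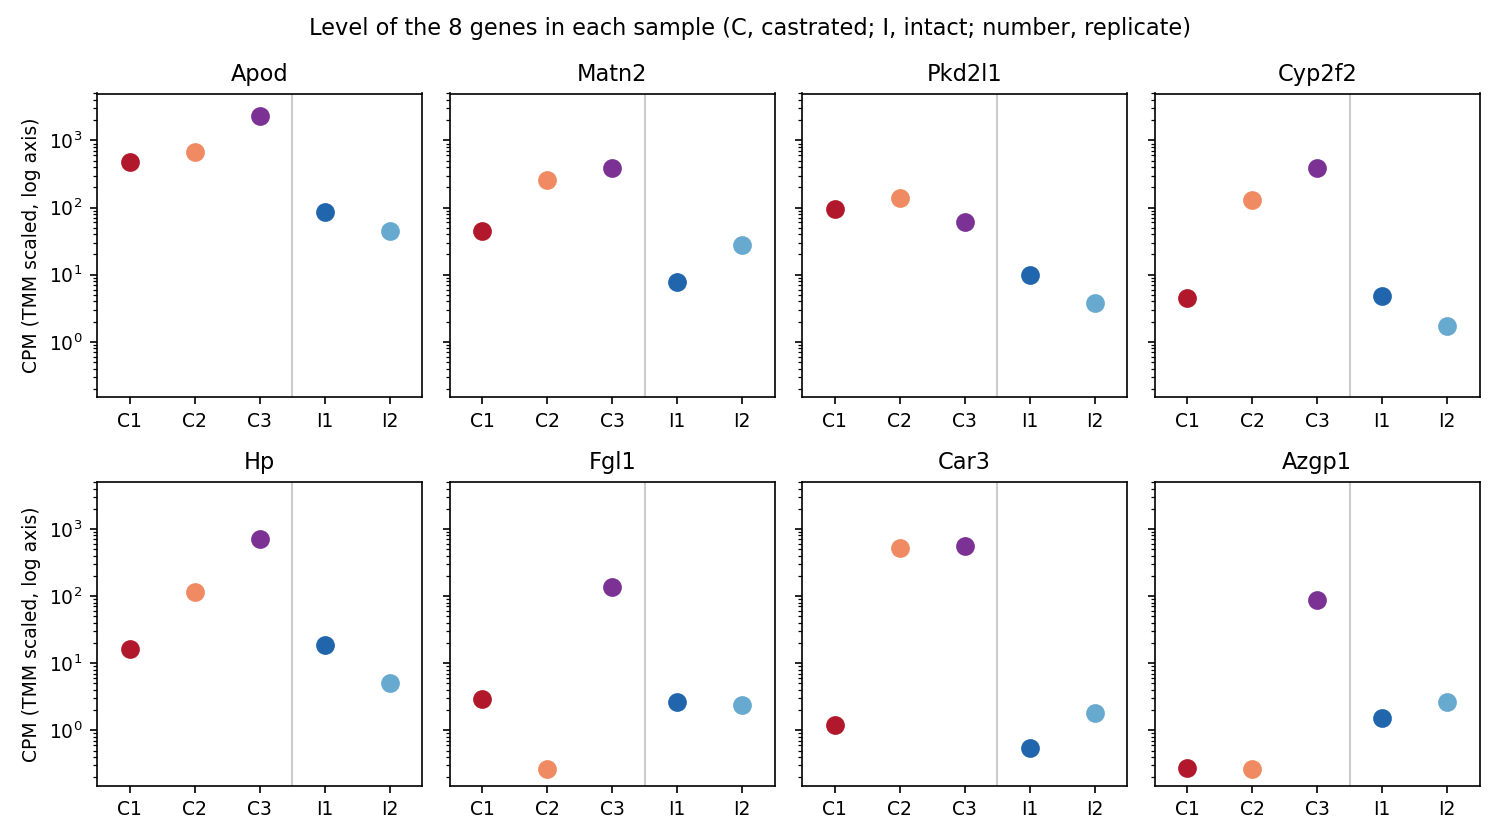
CPM (log axis) of each of the 8 genes in the 5 samples, 1 point per sample, with castrated (C1 to C3) and intact (I1, I2) samples separated by a line. The castrated points of Apod, Matn2 and Pkd2l1 all lie above the intact points, C1 lies at the intact level for Cyp2f2, Hp and Car3, and only C3 is high for Fgl1 and Azgp1.

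Car3 showed the largest difference of the 8 and was split within the castrated group. Raw counts were 34, 9766 and 11615 in castrated replicates 1 to 3, against 12 and 39 in intact replicates 1 and 2. Castrated replicates 2 and 3 reached 523 and 559 CPM, while replicate 1, at 1.19 CPM, fell between the intact values of 0.54 and 1.81 CPM. The former pair was thus 290 and 309 times the higher intact sample, and castrated replicate 1 was inside the intact range. In castrated replicate 2 Car3 was the most abundant of the 8 genes, at 814 TPM. The log2 fold change was 8.27 (SE 2.72), rank 31 of the 14612 genes, and 7.81 without castrated replicate 3. These replicates were also the samples with high adipocyte markers, and hepatocyte markers summed to 43.7 TPM in replicate 2, where Car3 was as high as in replicate 3. The part of fat cells in the result was not tested.

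Cyp2f2 had the same split with a stepped height. It was counted 129, 2379 and 8114 times in castrated replicates 1 to 3, against 109 and 37 times in intact replicates 1 and 2. The levels were 4.5, 127 and 391 CPM in castrated samples (174 ± 197, SD, n = 3) and 4.88 and 1.71 CPM in intact samples (3.30 ± 2.24, SD, n = 2). Castrated replicate 1 lay between the intact samples, and replicates 2 and 3 were 26.1 and 80.0 times the higher of them. The log2 fold change was 5.73 (SE 1.95), and 4.33 without castrated replicate 3. In replicate 2, with 43.7 TPM of hepatocyte markers and 1912 TPM of adipocyte markers, Cyp2f2 was at 167 TPM.

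For a gene best known from club cells, 7 markers of that cell type were examined. They summed to 212, 965 and 1989 TPM in castrated replicates 1, 2 and 3 and to 97.9 and 300 TPM in intact replicates 1 and 2, with the carbonyl reductase Cbr2 the most abundant. Castrated replicates 3 and 2 had the highest sums, as they had the highest Cyp2f2. Of the secretoglobins that define club cells, Scgb1a1 was at 1.94, 1.09 and 0 TPM in castrated replicates 1 to 3 and at 0 and 14.3 TPM in intact replicates 1 and 2, and Scgb3a1 and Scgb3a2 were at 0 in all 3 castrated samples. The part of club cells in the level of Cyp2f2 was not tested.

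Hp followed Cyp2f2 closely. Its counts were 471, 2174 and 14569 in castrated replicates 1 to 3, against 421 and 110 in intact replicates 1 and 2. Castrated samples stood at 16.4, 116 and 701 CPM (278 ± 370, SD, n = 3) and intact samples at 18.8 and 5.10 CPM (12.0 ± 9.72, SD, n = 2). Replicate 1 was within the intact range, replicate 2 at 6.18 and replicate 3 at 37.2 times the higher intact sample. Castrated replicate 3, the sample with liver transcripts, held 84.1% of the castrated total. Without it the log2 fold change of 4.55 (SE 1.77) became 2.48, and in replicate 2, where Hp was also high, hepatocyte markers summed to 43.7 TPM. Adipocyte markers summed to 1912 and 1618 TPM in castrated replicates 2 and 3, and to 231, 215 and 217 TPM in castrated replicate 1 and intact replicates 1 and 2. The part of liver transcripts or of fat cells in the level of Hp was not tested.

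Fgl1 was high in a single mouse. It was counted 84, 5 and 2827 times in castrated replicates 1 to 3, against 59 and 52 times in intact replicates 1 and 2. At 136 CPM castrated replicate 3 was 51.5 times the higher intact sample, while replicate 1 (2.93 CPM) was level with the intact samples (2.64 and 2.41 CPM) and replicate 2 (0.27 CPM) was below both. That mouse held 97.7% of the castrated total. The log2 fold change was 4.21 (SE 2.5) with all samples and -0.63 without castrated replicate 3, so its direction rests on that sample.

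Azgp1 behaved likewise, with lower counts. The 8, 5, 1839, 34 and 57 counts of castrated replicates 1 to 3 and intact replicates 1 and 2 gave 0.28, 0.27, 88.5, 1.52 and 2.64 CPM. Both other castrated samples were thus below both intact samples, and 99.4% of the castrated total was in replicate 3. Without that replicate the log2 fold change turned from 3.84 (SE 2.69) to -2.90. Fgl1 and Azgp1 were high only in the sample in which the 14 hepatocyte markers summed to 31912 TPM. The part of liver transcripts in these values was not tested.

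**Figure D4:**
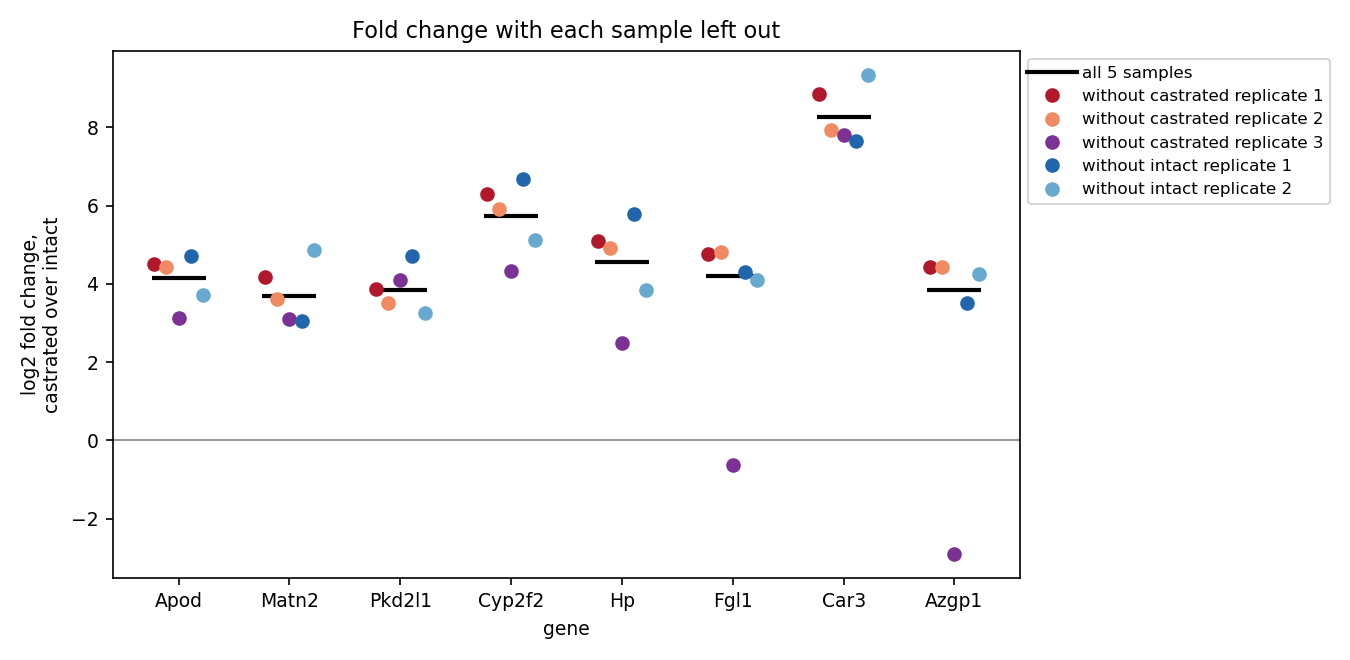
Log2 fold change (castrated over intact) of the 8 genes with all 5 samples (bars) and with each sample left out in turn (points). Without castrated replicate 3 the values of Fgl1 (-0.63) and Azgp1 (-2.90) fell below 0, while those of the other 6 genes stayed between 2.48 and 7.81.

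The spread among castrated samples differed widely among the 8. From the lowest to the highest castrated sample, levels differed by 2.28 times for Pkd2l1, 4.83 for Apod, 8.53 for Matn2, 42.7 for Hp and 86.9 for Cyp2f2, and by 330, 472 and 508 times for Azgp1, Car3 and Fgl1. On the log2 scale the median gene had a range of 0.57 among castrated samples, and the last 5 of these genes were at percentile 99.3 or above. The intact pair differed by 1.10 times for Fgl1 up to 3.70 times for Hp, and for Pkd2l1 (2.61 times) by more than the castrated samples. Fgl1 and Apod, far apart in this order, had log2 fold changes of 4.21 and 4.15. Of the 219 genes whose log2 fold change was at least that of Matn2, the lowest of the 8, 136 were over 2 times the higher intact sample in all 3 castrated samples, 66 in 2 and 17 in 1.

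Likeness of pattern was measured as the root mean square difference of log2 CPM (prior count 2) over the 5 samples, after centring each gene on its own mean, so that 0 stands for the same profile and larger values for less alike profiles. Among the 8, Cyp2f2 and Hp were nearest (0.77), followed by Apod with Hp and with Pkd2l1 (1.09 each), Apod with Matn2 (1.11) and Fgl1 with Azgp1 (1.14). Fgl1 and Car3 were farthest apart (4.59). With 5 samples these distances are descriptions only, and genes near the 8 share the contrast for which the 8 were chosen.

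The nearest other genes to Apod were Aox3, an aldehyde oxidase, Reln, a secreted glycoprotein that guides migrating neurons, and Cdh19, a cadherin of Schwann cells, at 0.28, 0.29 and 0.38. Cdh19 was low, at 0.481, 1.01 and 4.90 TPM in castrated and 0.0779 and 0.0404 TPM in intact samples. The 12 Schwann cell markers, led by Ngfr, summed to 529, 419 and 278 TPM in castrated replicates 1 to 3 and 545 and 63.9 TPM in intact replicates 1 and 2. Without Ngfr the sums were 109, 276 and 214 TPM against 88.3 and 51.7 TPM, with every castrated sample above both intact samples. Of the 9 that were tested 8 were higher, edgeR called 0 with 3 past the unadjusted p, and DESeq2 called 3 (Pmp22, Scn7a and Cdh19). Fibroblast markers summed to 3558, 5796 and 8220 TPM in castrated replicates 1 to 3 and to 2750 and 1407 TPM in intact replicates 1 and 2. The part of Schwann cells or of fibroblasts in the level of Apod was not tested. Nearest to Pkd2l1 were Pianp, Ms4a2, a chain of the IgE receptor of mast cells, and Tmeff2, a transmembrane protein of brain and prostate, at 0.43, 0.44 and 0.50. Pianp counted 531, 630 and 363 in castrated and 46 and 36 in intact samples. Nearest to Matn2 were Tlr11, a Toll-like receptor for microbial proteins, Gpr141b, and Ccr3, the eotaxin receptor of eosinophils, at 0.21, 0.31 and 0.31, with at most 141 counts in any sample.

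Genes near Cyp2f2 included Slc7a10, an amino acid transporter of the fat cell surface (0.61), and Nags, the synthase of N-acetylglutamate (0.79). Hp was nearest to Fmo6 (0.41), the carboxylesterase Ces1f (0.50) and Nags (0.52). Car3 had few genes with a like profile, 5 within a distance of 1, and the nearest were the fat cell genes Adipoq (0.82), Cidec (0.87) and Lep (0.88). Lep, which encodes leptin, was counted 297 and 307 times in castrated replicates 2 and 3 and 0 times in each other sample. Fgl1 and Azgp1 had 4 and 2 genes within this distance. The nearest to Fgl1 were the plasma protein genes Apoa2 (0.89), Lcat (0.91) and Serpina1e (0.92), and those to Azgp1 were C4bp (0.52), Lcat (0.67) and Proc (1.02). By contrast, 204, 313 and 112 genes lay within 1 of Apod, Matn2 and Pkd2l1.

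Relatives of each gene were examined in the fit over all genes tested, in which 6992 genes were higher and 7620 lower in castrated samples, around a median of -0.03 on the log2 scale. For Apod, a list of lipocalins, its family, and of apolipoproteins, which share its name, was taken. Of the 15 genes tested, 11 were higher and 4 lower. EdgeR called 0, with 2 higher and 1 lower (Apobr, log2 fold change -1.46) past the unadjusted p. Apobr is a receptor and belongs to neither group, but it remains in these counts and in the median. DESeq2 called 2 of the 15, both higher (Apoe and Orm1, the latter an acute-phase lipocalin). Their median log2 fold change was 1.49 with all samples and, with single samples left out, lay between -0.19 (without castrated replicate 3) and 3.55 (without intact replicate 2). In castrated replicate 3 the liver apolipoprotein Apoa1 stood at 3887 TPM, against 11.4 TPM or less elsewhere. Apoe, a lipid carrier made by macrophages and liver, was at 3388, 5361 and 4292 TPM in castrated and 1560 and 1373 TPM in intact samples (log2 fold change 1.43, SE 0.47, edgeR adjusted p = 0.302). Clu and Lcn2, the other abundant members, overlapped between groups, with fold changes of 0.14 and 0.60 on the log2 scale.

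For Matn2, 9 matrilins, thrombospondins and related matrix adaptors were tested, of which 6 were higher and 3 lower with a median of 0.56 (from 0.10 without castrated replicate 2 to 2.15 without intact replicate 1). DESeq2 called 1 higher, the cartilage matrix protein Cilp, and 1 lower, Coch, and edgeR called 0. Cilp was at 125, 87.7 and 109 TPM in castrated and 45.1 and 22.7 TPM in intact samples, without overlap (log2 fold change 1.58, SE 0.28, edgeR adjusted p = 0.289). Coch (cochlin) reached 1036 TPM in intact replicate 2 and 2.75 TPM at most in the other 4 samples. The thrombospondins Thbs1 and Thbs2 overlapped between groups, with log2 fold changes of -0.13 and 0.56. Of the polycystins, 3 passed the filter, Pkd2, Pkd1 and Pkdrej, the last named after its values were seen, with log2 fold changes of 0.60, 0.10 and 0.09 against the 3.84 of Pkd2l1. Their median lay between -0.17 (without intact replicate 2) and 1.22 (without intact replicate 1), and edgeR and DESeq2 called 0, with 0 past the unadjusted p. With no filter on low counts the median of the list was 0.35. The most abundant polycystin left out by the filter had 6, 13 and 22 counts in castrated and 2 and 1 in intact samples. Its CPM was over 2 times the higher intact sample in all 3 castrated samples. Pkd1l2 was also above both intact samples in every castrated sample, and Pkd1l3 overlapped between groups.

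All 9 cytochrome P450 family 2 genes that passed the filter, of 48 listed, were higher in castrated samples, with a median of 1.48, and 0.52 without castrated replicate 3. With no filter on low counts the median of the list was 3.95. DESeq2 called Cyp2d10 and Cyp2d22, and edgeR called 0 with 1 past the unadjusted p. Cyp2d22 was at 14.7, 23.2 and 51.0 TPM in castrated and 7.33 and 2.43 TPM in intact samples (log2 fold change 2.57, SE 0.71, edgeR adjusted p = 0.290). Cyp2e1, the ethanol-oxidizing liver enzyme and the most abundant relative, was at 876 TPM in castrated replicate 3 and at 36.2 TPM in replicate 2, below the 92.4 TPM of intact replicate 2. Cyp2c29 and Cyp2c70, liver enzymes next in abundance, were at 199 and 164 TPM in castrated replicate 3 and under 1 TPM elsewhere.

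Hp was set beside acute-phase plasma proteins and beside the genes that handle hemoglobin and heme. Of 15 acute-phase genes tested, 14 were higher and 1, Saa3, lower, with a median of 2.06 that was 1.12 without castrated replicate 3 and 4.49 with no filter on low counts. EdgeR called 0, with 6 higher and 1 lower past the unadjusted p, and DESeq2 called 3 higher (Orm1, C3 and Lbp) and Saa3 lower. The complement gene C3 was at 321, 550 and 1514 TPM in castrated replicates 1 to 3 and at 151 and 175 TPM in intact samples (log2 fold change 2.13, SE 0.79, edgeR adjusted p = 0.321). Fgb, the fibrinogen β chain, was at 2812 TPM in castrated replicate 3 and at 1.40 TPM or less elsewhere. Lcn2 was high in castrated replicate 3 and intact replicate 2 (1996 and 995 TPM), and overlapped between groups.

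Heme handling genes differed in their order over the samples. Hpx (hemopexin), which binds free heme in plasma, was at 1546 TPM in castrated replicate 3 and at 1.9 TPM or less elsewhere, and the hemoglobin scavenger receptor Cd163 was at 12.8, 10.4 and 27.7 TPM in castrated and 5.37 and 1.66 TPM in intact samples. Of 14 tested, 13 were higher with a median of 1.90, and 0.71 without castrated replicate 1. EdgeR called 0, with 3 past the unadjusted p, and DESeq2 called 4, all higher (Fth1, Ftl1, Hmox1 and Cd163). Hmox1, the heme-degrading enzyme, was highest in castrated replicate 1, where Hp was at the intact level, at 525, 358 and 120 TPM in castrated replicates 1 to 3 and 53.5 and 23.1 TPM in intact samples (log2 fold change 3.06, SE 0.71, edgeR adjusted p = 0.289). The ferritin chains Ftl1 and Fth1 (log2 fold changes 1.55 and 1.0) were above both intact samples in every castrated sample. Hbb-bs, the adult β-globin, was at 5403 TPM in castrated replicate 1 and between 14.8 and 380 TPM in the others. Macrophage markers, to which Cd163 also belongs, were higher in 12 of 12, with Lyz2 the most abundant. Of these, 9 were past the unadjusted p, edgeR called 0 and DESeq2 called 6. They summed to 5340, 14966 and 5593 TPM in castrated and 2191 and 2677 TPM in intact samples.

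Fgl1 belongs to the fibrinogen-related proteins. Its list also held the receptor Lag3 and the Fc receptor-like Fcrla, which are not of that family. Of 14 genes of the list tested, 13 were higher and 1 lower, with a median of 1.08 that lay between 0.46 (without castrated replicate 3) and 1.93 (without intact replicate 1). Without Lag3 and Fcrla 12 were tested, 11 higher and 1 lower with a median of 0.79, edgeR called 0 with 4 past the unadjusted p, and DESeq2 called 3. After Fgb the most abundant were Fgg and Fga, at 1554 and 1342 TPM in castrated replicate 3 and at 0.611 TPM or less in the other samples. The 3 that DESeq2 called (Mfap4, Fcna and Tnxb) were above both intact samples in every castrated sample. Mfap4, a microfibril protein of elastic tissue, was at 55.8, 113 and 169 TPM in castrated and 10.6 and 23.4 TPM in intact samples (log2 fold change 2.51, SE 0.69, edgeR adjusted p = 0.290). Fibroblast markers were also higher in castrated samples, 11 of 12 with 8 past the unadjusted p. EdgeR called 0 of them and DESeq2 6, all higher. They summed to 3558, 5796 and 8220 TPM against 2750 and 1407 TPM in intact samples, with Dcn (decorin) the most abundant.

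Among carbonic anhydrases other than Car3, 5 of 8 tested were higher with a median of 0.23, which lay between 0.13 (without castrated replicate 3) and 1.5 (without intact replicate 2), and 0 were called by edgeR or DESeq2, with 1 past the unadjusted p (Car5b). Car2, the widespread cytosolic form, was lower in castrated samples on average (log2 fold change -2.09, SE 1.15, edgeR adjusted p = 0.438), as it stood at 1053 TPM in intact replicate 2 and between 65.0 and 251 TPM elsewhere. Car8 and Car13 overlapped between groups. Skeletal muscle, another tissue rich in Car3, was represented by 13 markers that summed to between 10.6 and 17.8 TPM in all 5 samples, led by Tnni2.

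MHC class I-like proteins, the structural relatives of Azgp1, were higher in 9 of 12 with a median of 0.76, which lay between 0.37 and 1.23 without intact replicates 1 and 2 in turn. DESeq2 called Fcgrt, Cd1d1 and H2-M3, all higher, and edgeR called 0 with 3 past the unadjusted p. Fcgrt, the receptor that recycles IgG and albumin, was at 118, 112 and 166 TPM in castrated and 51.5 and 23.03 TPM in intact samples (log2 fold change 1.76, SE 0.34, edgeR adjusted p = 0.289). B2m, the light chain of class I molecules, did not overlap between groups (log2 fold change 0.72), and H2-T23 did. H2-Q10, a secreted liver class I molecule named after its values were seen, was at 346 TPM in castrated replicate 3 and 5.02 TPM or less elsewhere.

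Androgen-regulated prostate genes served as a check on castration itself. Of 16 tested, 9 were higher and 7 lower, with a median of 0.19 (0.06 without castrated replicate 3, 0.44 without intact replicate 1). EdgeR called 0, with 1 higher (Hpgd) and 1 lower past the unadjusted p, and DESeq2 called 1, which was lower. Tmprss2, a protease gene driven by the androgen receptor, was at 124, 155 and 126 TPM in castrated and 182 and 179 TPM in intact samples (log2 fold change -0.57, SE 0.22, edgeR adjusted p = 0.329), and Sord overlapped between groups. Neutrophil markers, led by Ltf, summed to 920, 1062 and 1251 TPM in castrated and 833 and 593 TPM in intact samples. Without Ltf the sums were 793, 540 and 349 TPM against 355 and 434 TPM, and castrated replicate 3 was below both intact samples. T cell markers, led by Cd3g, summed to 25.2, 86.0 and 87.2 TPM against 15.3 and 45.7 TPM. Smooth muscle markers, led by Tagln, were higher in 10 of 10 with 8 past the unadjusted p. EdgeR called 0 of them and DESeq2 7. They summed to 461, 770 and 641 TPM against 289 and 142 TPM. The summed epithelial markers, led by Krt18, overlapped between the groups. Prostate luminal markers, also led by Krt18, summed to 3922, 3167 and 4063 TPM in castrated and 4472 and 5192 TPM in intact samples, so that every castrated sum was below both intact sums. Without Krt18 they overlapped, at 2488, 2099 and 2604 TPM against 2506 and 4155 TPM. Seminal vesicle markers, led by Svs4, reached 20.2 TPM in intact replicate 2 and 0.691 TPM at most elsewhere.

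The genes beside the 8 on the chromosome were examined next. The 3 nearest genes on each side gave 48 neighbours, at most 623 kb away, of which 29 passed the filter. Among them, 12 had higher and 17 lower castrated values, and the median of their log2 fold changes was -0.16. EdgeR called 0, with 1 (Rbis) past the unadjusted p. None of the 29 was over 2 times the higher intact sample in 2 or 3 castrated samples. In castrated replicate 3 alone 1 of them was, Bdh1 beside Apod (44.8 CPM). Of those tested, only Egln2 beside Cyp2f2 was above both intact samples in every castrated sample (log2 fold change 0.16), and 3 were below both, Chuk beside Pkd2l1 (-0.37), Ist1 beside Hp (-0.27) and Rbis beside Car3. Rbis, a ribosome biogenesis factor, was at 51.9, 38.3 and 38.1 CPM in castrated and 72.3 and 136 CPM in intact samples (log2 fold change -1.28, SE 0.32, edgeR adjusted p = 0.290) and was the only neighbour that DESeq2 called. Among neighbours left out by the filter, chosen after their values were seen, Cyp2a5 beside Cyp2f2 and Cyp3a13 beside Azgp1 were at 28.1 and 19.5 CPM in castrated replicate 3. Gjc3 beside Azgp1 (5, 11 and 30 counts in castrated, 0 in intact samples) had every castrated value above both intact values. So had Pmfbp1 beside Hp and Gm9733 beside Car3, and these genes had 30 counts or fewer in each sample. Gjc3 and Pmfbp1 were over 2 times the higher intact sample in all 3 castrated samples, and Cyp2a5 in castrated replicates 1 and 3.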

How the data were processed

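Libraries were depleted of ribosomal RNA and sequenced from both ends. The authors used Trimmomatic 0.39 for trimming, STAR 2.7.9 for alignment to mm10 and HTSeq 2.0.2 for counting per gene. The deposited values are raw counts of 24527 genes with gene lengths in kilobases, and the strand setting is not given in the sources used here. Samples were grouped by their titles, and none was left out.

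Genes above 1 CPM in at least 2 samples entered the quasi-likelihood F-test of edgeR 4.0.16 (R 4.3.3, TMM scaling, no covariate), with Benjamini-Hochberg adjustment over all 14612 genes. DESeq2 1.42.0, other scalings, filters and prior counts, the likelihood ratio test, leaving out samples and, chosen after seeing the data, edgeR's older fit and a shorter fibrinogen-related list were alternatives. SE of fold changes come from the edgeR fit. A gene above 1 CPM in castrated samples alone passed the filter through them, so its place among the higher genes of a list was fixed. The 8 genes, gene lists and markers were chosen with earlier results of these data known. Named genes were the 8, the 3 most abundant of each related list, the most abundant marker of each list, the 3 nearest in pattern and neighbours called or not overlapping. Genes called by DESeq2 and a few others were named after their values were seen, and a few genes that remain in the counts are not reported here. With a common dispersion of 0.238, precision was limited by the spread between mice except at the lowest counts. Samples of a group were distinct libraries (chi-square per gene of at least 134 between them). Gene types, exon numbers and overlapping genes were those of GENCODE, and promoters those of RefSeq.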

Additional observations from a re-analysis of the deposited data

How the results depend on the processing

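The count of genes called by edgeR (0) came to 989 under DESeq2 and 369 under the likelihood ratio test, and ranged from 0 to 1 with each sample left out, where the 1 gene was Coch, without intact replicate 1. Among the related lists the count was 21 under DESeq2, 8 under the likelihood ratio test and 0 to 1 with a sample left out, and among genomic neighbours DESeq2 called 1. The number of the 8 genes carried by all castrated samples (2) ranged from 2 to 6 with a sample left out. The 6 were reached without castrated replicate 1, and leaving out either intact replicate gave 4. Scaling by library size alone or by size factors left it at 2.

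Without castrated replicate 3 the log2 fold changes of Fgl1 and Azgp1 were -0.63 and -2.90. Fitted with a replicate block, in which castrated replicate 3 has no partner, they were -1.27 and -2.83, those of the other 6 genes were 2.14 or more, and 0 genes were called (975 at the unadjusted p, against 1596). Same-numbered samples are different mice, and the labels state no pairing. The correlations of their deviations were 0.15 and -0.05. The deviations of the 2 intact samples mirror each other, so these values cannot exclude a pairing. On the log2(TPM + 1) scale Fgl1 and Azgp1 were at 1.33 and 0.72. Of 136 values of the 8 genes under the alternatives, 6 moved by more than the spread between replicates and 4 were below 0. Of 91 list medians, 13 moved and 2 were below 0, those of the lipocalins without castrated replicate 3 (-0.19) and of the polycystins without intact replicate 2 (-0.17).

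Depth limits the low values of Fgl1 and Azgp1 outside castrated replicate 3, which rest on 5 to 84 counts.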
